A study of Mus musculus with 6 samples.

Results

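Expression of 10 genes of the BCL2 family, which decide whether a stressed cell survives or dies through its mitochondria, was examined in mouse LSK cells. The members were taken by symbol from a list, with no threshold on their values, although earlier results of these data were known when the list was made. All 10 were present among the 48395 symbols of the count tables, and all 10 were among the 16739 genes that passed the filter on low counts. They comprise 3 survival genes (Bcl2, Bcl2l1 and Mcl1), 5 BH3-only genes (Bcl2l11, Bbc3, Pmaip1, Bid and Bad) and 2 effector genes (Bax and Bak1).

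The proteins act by binding one another. BAX and BAK1 form pores in the outer mitochondrial membrane, through which cytochrome c escapes and sets off the caspases. BCL2, BCL-xL (the product of Bcl2l1) and MCL1 hold these effectors and their activators in check, and BH3-only proteins, made or modified under stress or loss of growth factor, bind the survival proteins or switch on the effectors. In blood formation Mcl1 is required for the survival of stem cells, Bcl2l1 for late erythroid cells, and signals through JAK2 and STAT5 are known to raise Bcl2l1.

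RNA was sequenced from LSK cells (lineage-negative, Sca-1-positive, c-Kit-positive marrow cells, the fraction that holds stem cells and early progenitors) in 6 libraries. Donor marrow came from mice primed with 5-fluorouracil that carried Mx1Cre, a Cre driven by an interferon-inducible promoter, and the activating allele Jak2V617F/+ (Jak2VF/+). It was transduced with a lentivirus that carried either the vector alone (3 libraries, the vector group) or Hmga2 (3 libraries, the group labelled Hmga2), and was injected into C57BL/6 recipients given 2 doses of 550 cGy. Marrow was taken 32 weeks after the transplant, so both groups share the Jak2 allele, the transduction, the irradiated host and the time. The labels call the 3 libraries of a group biological replicates and name no gate on donor or transduced cells. The sources used here do not give donor age or sex.

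The libraries held between 24818011 and 35471806 counts in total, and levels are given as CPM, counts scaled to a common library size with TMM factors. On the scale of plain totals, 3 reads equal between 0.0846 and 0.121 CPM, and this floor covers counting error alone. The gene Hmga2 itself was at 5.97, 5.02 and 7.04 CPM in vector replicates 1 to 3, against 2.64, 6.62 and 5.92 CPM in labelled Hmga2 replicates 1 to 3, with a log2 fold change of -0.25 and a 95% interval from -1.08 to 0.58. Hmga2 was thus not higher in the libraries that carry its name, and the sources used here do not say whether reads from the introduced copy were counted. Directions are therefore given below for the libraries labelled Hmga2 and not for an effect of Hmga2. The sort markers were present, Kit at 248 to 375 CPM and Ly6a, which encodes Sca-1, at 19.3 to 59.1 CPM. The 12 T and NK cell markers summed to 131 to 233 CPM with vector and 153 to 179 CPM under the Hmga2 label. Most of that sum was Nkg7 (123.1 to 231 CPM), singled out after its values were seen, while 9 of the 12 were at 3 reads or fewer in at least 1 library and Cd3e reached at most 1 read. Igha, an antibody gene of plasma cells, was above 1000 CPM in vector replicates 1 and 3 and labelled Hmga2 replicate 2, called the immunoglobulin-rich libraries below. Summed over all 15 B cell and plasma cell markers, the level was 812 to 13802 CPM in the vector group and 632 to 4585 CPM in the group labelled Hmga2. The 12 granulocyte markers summed to 4394 to 9329 and 2988 to 4861 CPM, and the 12 erythroid markers to 1702 to 2142 and 1198 to 1742 CPM. The granule protease gene Elane, a granulocyte marker, was at 253 to 843 and 149 to 187 CPM. The 8 glial and myelin markers summed to 208 to 449 and 199 to 232 CPM, and the 8 stroma and endothelial markers to 82.6 to 103 and 102 to 124 CPM. Of 6 glial markers tested, 5 had a negative log2 fold change (median -1.86, 0 called in edgeR and 2 in DESeq2). Of 7 stroma markers tested, 5 had a positive log2 fold change (median 0.45, 0 called in edgeR and 1 in DESeq2). Their part in the values below was not tested.

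In each library the transcripts of Mcl1, Bak1 and Bax were the most abundant of the family. Levels of different genes were compared as CPM per kb of merged exons in the GENCODE M21 annotation. Bak1 had a mean of 61.6 over the 6 libraries (54.4 to 71.8) and Mcl1 a mean of 59.2 (52.5 to 67.4), and these ranges overlapped, Bak1 being the higher in 2 of 6 libraries. On these lengths Bax was the third in every library with a mean of 40.2 (34.0 to 49.3), and its range lay below those of both. With lengths from the longest annotated transcript its mean was 57.6, beside 59.2 for Mcl1 and 62.2 for Bak1. The gap between Bax and both genes therefore depends on the length used. Bid was the fourth in every library, with a mean of 19.1 (16.0 to 21.8).

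Lower levels per kb were those of Bad with a mean of 12.4 (10.4 to 14.0), Bcl2 with 10.7 (8.42 to 13.5) and Bcl2l1 with 8.47 (6.22 to 10.1), each overlapping the next in this order. The last were Bbc3 with a mean of 4.59 (3.92 to 5.09), Pmaip1 with 3.39 (1.93 to 5.49) and Bcl2l11 with 2.42 (2.19 to 2.79), whose neighbours in the order overlapped as well. Thus the level of both effector genes stood above that of every BH3-only gene in all libraries. Lengths from the longest annotated transcript placed Bcl2l1 (mean 15.1) above Bcl2 (13.6) and Bcl2l11 (3.86) above Pmaip1 (3.40), so the order within these pairs depends on the length used. Lengths that merge all annotated exons lower the level of genes with many alternative exons.

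**Figure D1:**
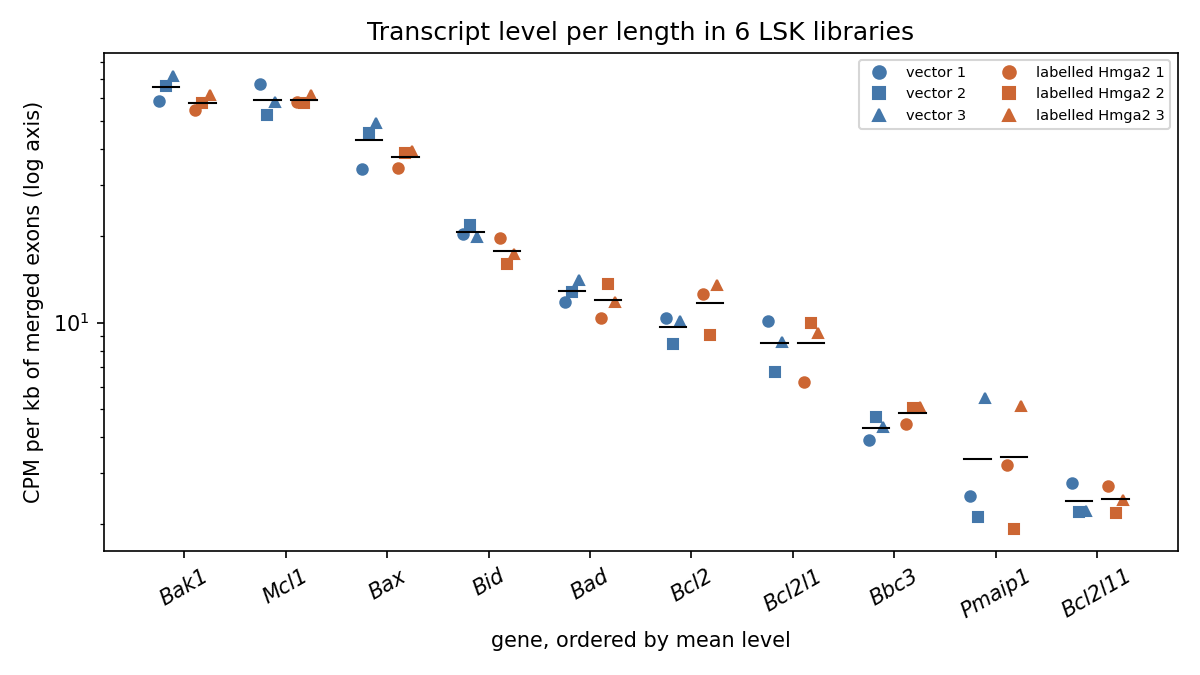
Level per length of the 10 genes, as CPM per kb of merged exons on a log axis, for each vector library (blue) and each library labelled Hmga2 (orange), marker shapes giving replicates 1 to 3 and bars the group means. Bak1, Mcl1 and Bax lie between 34.0 and 71.8, and Bcl2l11 lies at 2.79 or below.

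Among the 3 survival genes, Mcl1 made up most of the level per kb. Its share of the summed level of Bcl2, Bcl2l1 and Mcl1 was 76.7%, 77.6% and 75.6% in the vector libraries and 75.5%, 75.2% and 73.0% in the libraries labelled Hmga2. The lowest vector value and the highest value of the other group lie next to each other, and with longest-transcript lengths the groups overlapped (68.4% ± 1.26 and 66.4% ± 1.78, SD, n = 3 each). Bcl2 held 12.5% ± 0.688 and 14.7% ± 2.57 of that level, and Bcl2l1 10.9% ± 0.828 and 10.7% ± 2.46.

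The summed level of Bax and Bak1 divided by that of the survival genes was 1.05, 1.65 and 1.58 in the vector libraries and 1.15, 1.25 and 1.198 in the libraries labelled Hmga2. Vector replicate 1 lay below the other group and vector replicates 2 and 3 above it. The summed BH3-only level divided by the survival level was 0.470, 0.643 and 0.598 and then 0.524, 0.506 and 0.497, in the same arrangement of vector libraries. These ratios are descriptions of each library and were not tested.

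No member passed the quasi-likelihood test of edgeR between the groups after adjustment over all genes, where 0% of the 16739 genes were called. The smallest adjusted p of a member was 0.855. At an unadjusted p under 0.05, 0 of the 10 members passed in edgeR and 1, Bid, in DESeq2, beside 5.59% (2.23% higher and 3.36% lower) and 6.3% of all genes, and DESeq2 called 0 members after adjustment, beside 0.425% of all genes. A single member of the 10, Bid, had groups without overlap (1 of 10), beside 11.2% of all genes (5.28% higher and 5.88% lower). Of the 10 log2 fold changes 4 were positive and 6 negative, beside 50.4% and 49.6% of all genes, and their median was -0.0040, beside 0.0016 for all genes. The members' median was -0.13 without vector replicate 2, and -0.066 and -0.082 without labelled Hmga2 replicates 2 and 3. The median size of the change regardless of sign was 0.139 for the members, 0.137 for all genes, and 0.107 for the 9560 genes whose mean CPM lay in the range of the members.

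The intervals show how large a difference these libraries could have hidden. For 8 of the 10 genes the 95% interval lay within a 1.5-fold difference in either direction, and for 0 of the 10 did it leave out 0. Bcl2 and Pmaip1 were the others. Fewer cells of a type and less RNA per cell cannot be told apart in such bulk samples.

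**Figure D2:**
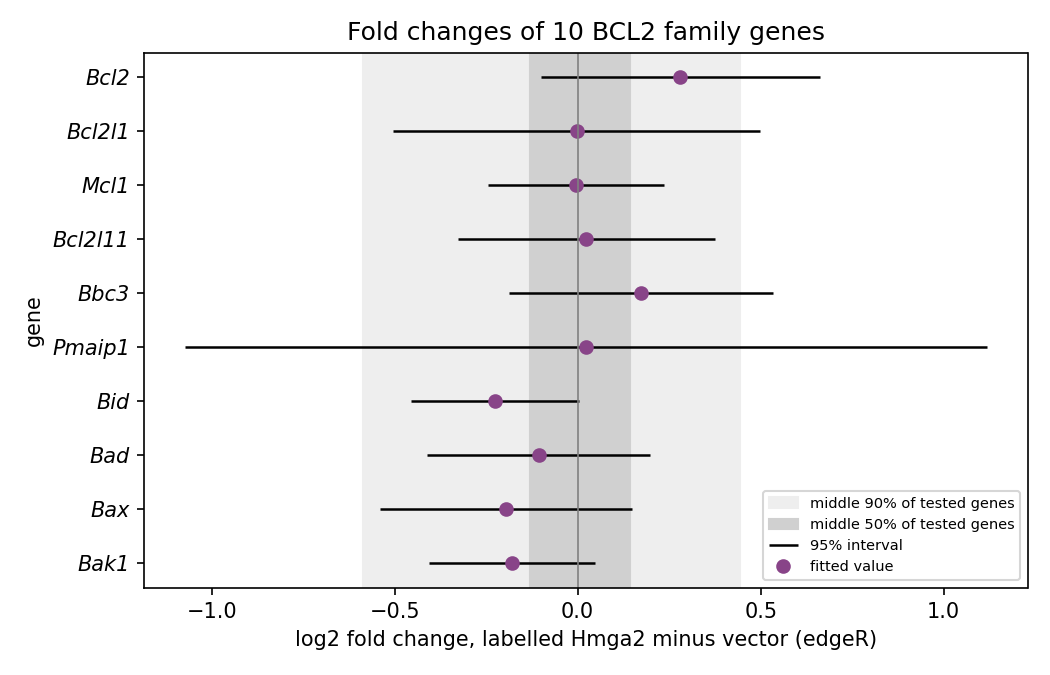
Fitted log2 fold change of each member, labelled Hmga2 minus vector, with its 95% interval from edgeR (horizontal lines), over bands that hold the middle 50% and 90% of all tested genes. Every interval crosses 0, the interval of Bid by the least margin (upper end 0.005), and Pmaip1 has the widest, from -1.07 to 1.12.

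Of the survival genes, Mcl1 was the most evenly expressed. The gene (chromosome 3, 95658788 to 95663176, mm10) encodes a short-lived protein that blood stem cells need. It was at 230.4, 179 and 198 CPM in vector replicates 1 to 3, against 199, 197 and 209.9 CPM in labelled Hmga2 replicates 1 to 3. All values of the latter lay inside the vector range. The fold was 0.997 with a 95% interval from 0.844 to 1.18 (adjusted p = 0.999, edgeR), and at least 4669 reads per library lay behind it.

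Bcl2 (chromosome 1, 106538178 to 106714274), the founding survival gene of the family, had the highest values in a pair of libraries labelled Hmga2. It was at 95.2, 77.1 and 92.7 CPM in vector replicates 1 to 3, against 115, 82.8 and 124 CPM in labelled Hmga2 replicates 1 to 3. Replicates 1 and 3 of the latter stood above all vector libraries, and replicate 2 stood below vector replicates 1 and 3. The log2 fold change was 0.28 with a standard error of 0.16 (95% interval -0.10 to 0.66, adjusted p = 0.855, edgeR), equal to a fold of 1.21. Exons of Bcl2 overlap those of D630008O14Rik on the opposite strand.

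The same pair of libraries stood apart in Y-linked transcripts. Ddx3y, Kdm5d, Eif2s3y and Uty summed to 192 and 127 CPM in labelled Hmga2 replicates 1 and 3, and to 5.27 to 21.5 CPM in the other 4 libraries. No vector library had a high sum, so a term for these genes cannot be fully told apart from the group, for Bcl2 or any other gene. With that term the log2 fold change of Bcl2 was 0.07. Without labelled Hmga2 replicate 3 it was 0.17 and without replicate 2 it was 0.43. Among immunoglobulin-rich libraries (1 labelled Hmga2, 2 vector) Bcl2 was lower in the library labelled Hmga2, by a log2 ratio of -0.18, and among the others (2 labelled Hmga2, 1 vector) it was higher, by 0.63, so the pooled direction did not hold within both sets.

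Bcl2l1 (chromosome 2, 152780668 to 152831728), which encodes BCL-xL, had the widest spread of the survival genes, within both groups. It was at 46.4, 30.9 and 39.4 CPM in vector replicates 1 to 3, against 28.5, 45.7 and 42.2 CPM in labelled Hmga2 replicates 1 to 3. Vector replicate 2 and labelled Hmga2 replicate 1 were the low libraries, 1 from each group. Group means were 38.9 ± 7.79 and 38.8 ± 9.1 CPM (SD, n = 3 each), and the log2 fold change was -0.003 with a standard error of 0.21. The ratio of its highest to its lowest library was 1.63, against 1.60 for Bcl2 and 1.28 for Mcl1.

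**Figure D3:**
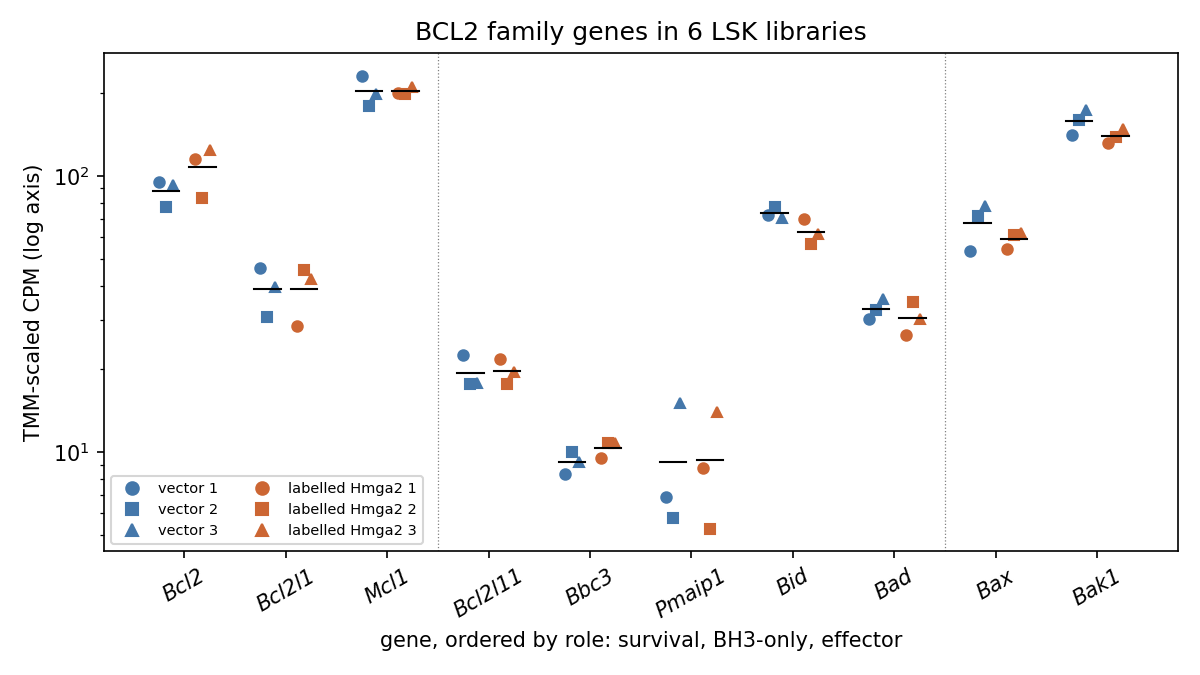
TMM-scaled CPM of each member on a log axis in the 3 vector libraries (blue) and 3 libraries labelled Hmga2 (orange), grouped as survival, BH3-only and effector genes, with marker shapes for replicates 1 to 3 and bars for group means. For 9 of the 10 genes the groups overlap, and for Bid the highest library labelled Hmga2 (69.5) lies just below the lowest vector library (70.2).

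Bid was the BH3-only gene with the highest level and the member with the smallest p-value. It encodes a protein that caspase 8 cleaves, which links death receptors to the mitochondria. Bid (chromosome 6, 120891930 to 120916853) was at 72.1, 77.2 and 70.2 CPM in vector replicates 1 to 3, against 69.5, 56.8 and 61.6 CPM in labelled Hmga2 replicates 1 to 3. The groups did not overlap, but labelled Hmga2 replicate 1 and vector replicate 3 were 69.5 and 70.2 CPM. The log2 fold change was -0.22 with a standard error of 0.10 (95% interval -0.45 to 0.005), a fold of 0.856. In edgeR the unadjusted p was 0.0538 and its adjusted p = 0.855.

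In 14 alternative fits the log2 fold change of Bid was negative each time, from -0.34 to -0.16, and its unadjusted p was under 0.05 in 7 of them, while its adjusted p ranged from 0.474 to 0.9997. The log2 ratio was -0.33 among immunoglobulin-rich libraries and -0.24 among the others. The gene overlaps exons of Bcl2l13 on the opposite strand, and since the strand setting of the counting is not given, reads in the overlap cannot be told apart. The granulocyte markers had negative log2 fold changes in the same comparison (12 of 12, median -1.44, 0 called in edgeR and 3 in DESeq2), and their part in the value of Bid was not tested.

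Bad, whose product is inactivated by growth factor signals, had its lowest library in the group labelled Hmga2, whose replicate 3 equalled vector replicate 1 at 30.2 CPM. It (chromosome 19, 6941861 to 6951899) was at 30.2, 32.6 and 35.9 CPM with vector and 26.6, 34.9 and 30.2 CPM under the Hmga2 label, with a fold of 0.929 and a 95% interval from 0.752 to 1.15. The log2 fold change of -0.11 was -0.015 and -0.22 without labelled Hmga2 replicates 1 and 2, and -0.17 and -0.032 without vector replicates 1 and 3. Its exons overlap Gpr137 on the opposite strand. Bbc3 (chromosome 7, 16308393 to 16318205), which encodes PUMA, a killer induced by p53 and by cytokine loss, was at 8.32, 9.99 and 9.21 CPM with vector and 9.47, 10.7 and 10.8 CPM under the Hmga2 label. Labelled Hmga2 replicates 2 and 3 stood above all vector libraries and replicate 1 did not, with a log2 fold change of 0.17 and a standard error of 0.15 (adjusted p = 0.889, edgeR), and of 0.11 without vector replicate 1.

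Bcl2l11 (chromosome 2, 128126038 to 128162547), which encodes BIM, the BH3-only protein that FOXO factors raise when growth factors are withdrawn, was at 22.4, 17.6 and 17.8 CPM with vector and 21.7, 17.6 and 19.5 CPM under the Hmga2 label. Replicate 1 was the highest in each group, and the ranges coincided almost entirely. Its fold was 1.02, with a 95% interval from 0.797 to 1.30.

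Pmaip1 (chromosome 18), which encodes NOXA, a BH3-only protein that binds MCL1 and is a p53 target, had the widest spread of the family, and that spread lay within the groups. It was at 6.84, 5.77 and 15.0 CPM in vector replicates 1 to 3, against 8.73, 5.27 and 14.0 CPM in labelled Hmga2 replicates 1 to 3. Replicate 3 of each group was high and the other 4 libraries lay at 8.73 CPM or below. The ratio of the highest to the lowest library was 2.85, while the fitted log2 difference was 0.02 (standard error 0.47, 95% interval -1.07 to 1.12). These values rested on 150 reads in the library with the fewest and 480 in that with the most.

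Genes with a pattern like that of Pmaip1 were looked up after its values had been seen. Distance was the mean absolute difference of log2 CPM minus the gene's mean over the 6 libraries. The pool held genes at a mean of 10 CPM or more, with Gm, Rik and immunoglobulin genes left out. The closest were Socs3, an inhibitor of cytokine signals (0.202), and Cd68, a macrophage lysosomal gene (0.253). Next was Cdkn1a, the p53 target that encodes the cell cycle inhibitor p21 (0.267). Socs3 was at 21.6, 17.2 and 39.4 CPM in vector replicates 1 to 3, against 20.6, 16.0 and 27.5 CPM in labelled Hmga2 replicates 1 to 3. Cd68 was at 22.5, 25.6 and 40.7 CPM with vector and 20.9, 18.4 and 37.8 CPM under the Hmga2 label. For Socs3 and Cd68, replicate 3 of each group was again the highest.

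The effector genes Bax and Bak1 varied together across libraries. Bax (chromosome 7, 45461697 to 45466898) was at 53.5, 71.7 and 77.7 CPM in vector replicates 1 to 3, against 54.2, 60.9 and 62.1 CPM in labelled Hmga2 replicates 1 to 3. Bak1 (chromosome 17, 27019810 to 27029009) was at 141, 159 and 173 CPM with vector and 131, 138 and 148 CPM under the Hmga2 label. In both genes vector replicates 2 and 3 were the highest libraries, and vector replicate 1 lay within the range of the libraries labelled Hmga2 or below it.

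The log2 fold changes were -0.20 for Bax (standard error 0.15) and -0.18 for Bak1 (standard error 0.10), with adjusted p of 0.864 and 0.855 in edgeR. They were -0.08 and -0.10 without vector replicate 3 and -0.34 and -0.26 without vector replicate 1, when their unadjusted p was 0.0121 and 0.0266 and their adjusted p 0.424 and 0.425, the lowest over the alternatives, the highest being 0.9997 for each. Among immunoglobulin-rich libraries the log2 ratios were -0.11 and -0.18, and among the others -0.30 and -0.19. The ratio of Bax to Bak1 per kb of merged exons was 0.652 ± 0.0611 in the vector group and 0.648 ± 0.021 in the other (SD, n = 3 each). With longest-transcript lengths this ratio was 0.926 ± 0.0868 and 0.921 ± 0.0299, so its size depends on the length used. Exons of Bak1 overlap those of Ggnbp1 on the opposite strand, and exons of Bax overlap those of Gm45808 on the same strand, so part of their reads may have been assigned to either.

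**Figure D4:**
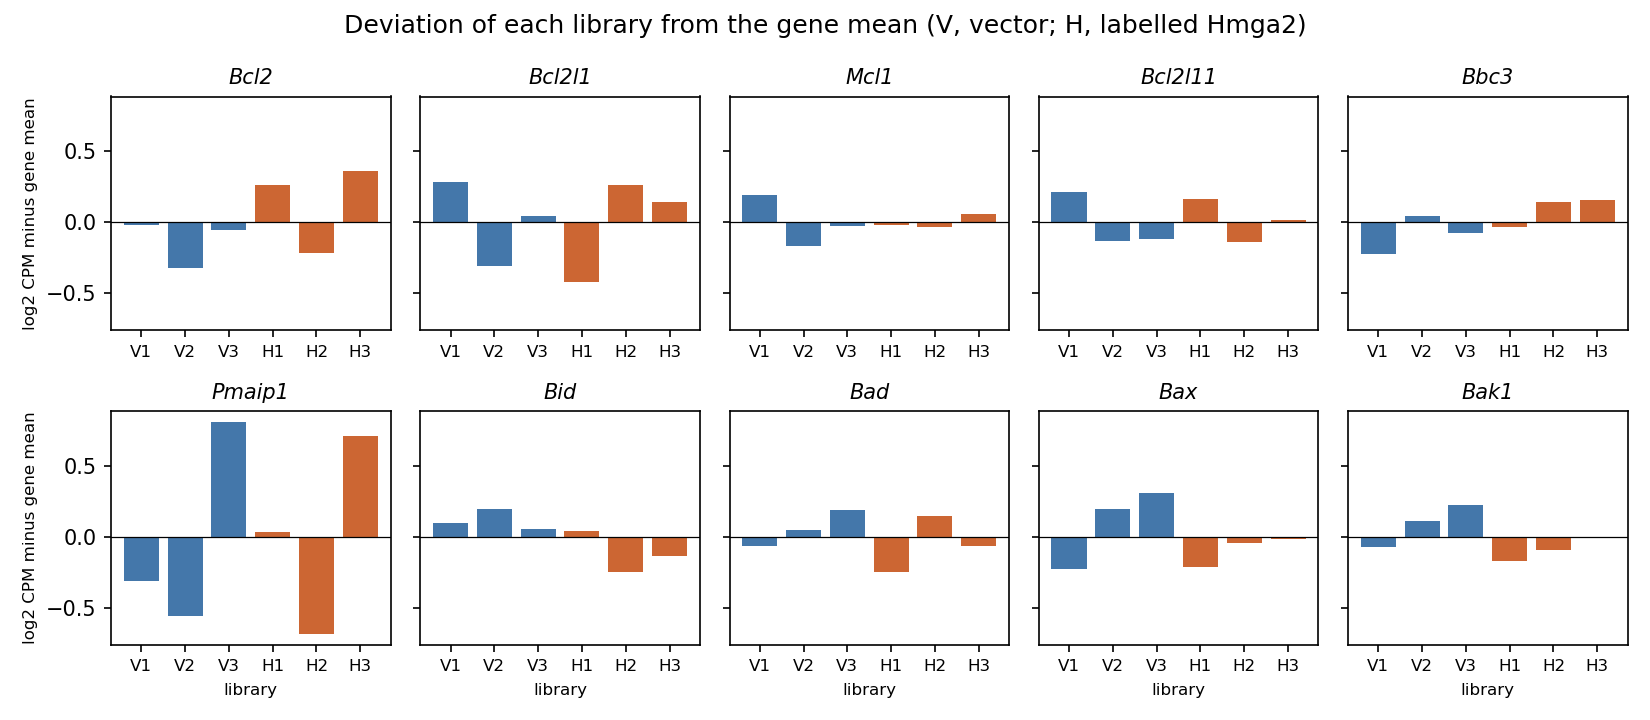
Log2 CPM minus the gene's mean over the 6 libraries (y axis) for each member and library (x axis: V1 to V3, vector; H1 to H3, labelled Hmga2). Pmaip1 reaches 0.81 and 0.71 in replicate 3 of both groups and -0.69 in H2, Bax and Bak1 share a profile, and Bcl2 is highest in H1 and H3.

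Measured by the same distance between profiles, Bax and Bak1 were the closest pair of the family (mean absolute difference 0.0713), followed by Bad with Bak1 (0.0813) and Mcl1 with Bcl2l11 (0.0814), and Pmaip1 was the farthest from any other member (0.407). Outside the family the genes closest to Mcl1 were Vmp1 (0.0254) and Ippk (0.0307), and those closest to Bcl2 were Rnf219 (0.0641) and Clcf1 (0.073). Those closest to Bcl2l1 were Srxn1 (0.0614) and Sox13 (0.0672). Each was picked from 9292 genes at a mean of 10 CPM or more, with Gm, Rik and immunoglobulin genes left out. The distance is not scaled to a gene's spread, so evenly expressed genes tend to lie close and uneven ones far. Bad and Bak1, for instance, deviated in opposite directions in labelled Hmga2 replicate 2 (0.145 and -0.093). These distances are descriptions over 6 libraries, with no test.

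Promoter windows of the family are shown for Mcl1 and Bcl2l11, a survival gene and a BH3-only gene with close profiles, and for Bax, an effector gene whose window held a GC box and an E-box. Sequences are from RefSeq on GRCm38.p6, are the 250 bases before the annotated start, and are written 5′ to 3′ on the gene's strand, with capitals marking GGGCGG (a GC box), CACGTG (an E-box) and CCAAT on either strand.
Mcl1, chr3:95658471-95658720, plus strand: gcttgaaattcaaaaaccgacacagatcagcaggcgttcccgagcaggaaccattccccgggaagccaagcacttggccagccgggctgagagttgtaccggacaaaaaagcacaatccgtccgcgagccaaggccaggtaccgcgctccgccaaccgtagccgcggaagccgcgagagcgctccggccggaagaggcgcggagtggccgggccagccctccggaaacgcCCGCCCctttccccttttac
Bcl2l11, chr2:128125788-128126037, plus strand: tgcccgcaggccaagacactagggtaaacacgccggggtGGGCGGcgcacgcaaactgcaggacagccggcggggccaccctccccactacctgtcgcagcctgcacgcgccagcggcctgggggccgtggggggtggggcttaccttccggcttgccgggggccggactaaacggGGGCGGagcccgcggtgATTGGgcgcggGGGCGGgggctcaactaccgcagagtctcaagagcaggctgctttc
Bax, chr7:45466899-45467148, minus strand: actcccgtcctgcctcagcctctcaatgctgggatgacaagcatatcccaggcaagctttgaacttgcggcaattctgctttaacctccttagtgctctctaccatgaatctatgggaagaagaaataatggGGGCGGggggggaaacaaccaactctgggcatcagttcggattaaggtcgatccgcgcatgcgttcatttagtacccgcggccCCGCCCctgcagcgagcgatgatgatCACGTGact

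RefSeq windows were matched for 9 of the 10 members, all but Pmaip1, in 15 windows, since some genes have several starts. GGGCGG was found in at least 1 window of 7 of the 9 genes, beside 35.4% of the 27025 genes with a window. The members' windows were 47.6% to 81.6% G and C, beside a median of 52.4% over all windows, and the part of this in the count was not tested. CACGTG was found for Bax and Bbc3 (6.86% of all genes) and CCAAT for Bad, Bbc3 and Bcl2l11 (37.5%). TATAA (25.8%) and TTCNNNGAA, the core that STAT factors recognise (8.13%), were found for 0 of the 9. Bak1, the gene whose profile was closest to that of Bax, held 0 of these motifs in its window. A match describes letters in the window and no factor's binding.

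The other genes of the BCL2 family showed no common direction. Of 15 listed, 12 were tested, 6 with a positive and 6 with a negative log2 fold change, a median of -0.01, 0 called, and 1 without overlap between groups, beside 11.2% of all genes. The median was 0.11 without vector replicate 3 and 0.094 without labelled Hmga2 replicate 1. The gene without overlap was Bmf, a BH3-only gene released from the cytoskeleton under stress, at 1.36, 0.500 and 1.80 CPM in vector replicates 1 to 3, against 2.54, 2.60 and 2.16 CPM in labelled Hmga2 replicates 1 to 3. Its fitted log2 difference was 1.00 (standard error 0.44, adjusted p = 0.855, edgeR) and rested on levels near 1 CPM. Bnip3l, a mitophagy receptor, was at 88.0 ± 8.54 and 99.7 ± 10.1 CPM, and the survival gene Bcl2l2 at 24.3 ± 1.66 and 27.5 ± 2.27 CPM (SD, n = 3 each). Bcl2l13, also a mitochondrial member of the family, was at 98.5 ± 11.8 and 89.0 ± 5.17 CPM.

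The 3 Bcl2a1 copies, near-identical survival genes between which the counting may have split reads, were low and uneven, as was Pmaip1. Bcl2a1b, for instance, was at 1.24, 2.03 and 3.82 CPM in vector replicates 1 to 3, against 0.622, 1.53 and 3.76 CPM in labelled Hmga2 replicates 1 to 3. Replicate 3 was the highest of each group for all 3 copies. Bcl2a1a, Bcl2a1b and Bcl2a1d fall outside the naming rule and were named after their values were seen.

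Downstream of the family, the apoptosome and caspase list held several genes without overlap, most of them lower in the libraries labelled Hmga2. Of 15 genes tested, 9 had a negative and 6 a positive log2 fold change (median -0.10), 0 were called in edgeR, and the groups did not overlap for 6, 5 lower and 1 higher, beside 11.2% of all genes. The median was -0.040 without labelled Hmga2 replicate 3 and -0.048 without vector replicate 3. Htra2, a mitochondrial protease released with cytochrome c, was at 109, 137 and 139 CPM in vector replicates 1 to 3, against 106, 103 and 104 CPM in labelled Hmga2 replicates 1 to 3. The libraries labelled Hmga2 were close together, and vector replicate 1 was only just above them. Its log2 fold change was -0.30 with a standard error of 0.10 (adjusted p = 0.855, edgeR).

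Aifm1, encoding apoptosis-inducing factor, was at 74.7 ± 2.04 and 65.1 ± 1.29 CPM, and Vdac2, the outer membrane channel that binds BAK1, at 265 ± 15.0 and 231 ± 14.1 CPM. Casp2, an initiator caspase, was the 1 without overlap that was higher, at 130.4 ± 8.35 and 149 ± 6.05 CPM (SD, n = 3 each). The adjusted p was 0.855 for each of these genes in edgeR, and the DESeq2 adjusted p was 0.461 for Htra2, 0.562 for Aifm1, 0.671 for Vdac2 and 0.791 for Casp2. Of the granulocyte markers 12 of 12, and of the erythroid markers 9 of 12, had a negative log2 fold change in the same comparison, and their part in these values was not tested.

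Genes listed as inhibitors of apoptosis did not pass the test either. Of 8 tested, 6 had a positive log2 fold change, beside 50.4% of all genes, 0 were called, and 3 did not overlap, beside 11.2% of all genes. Their median was 0.19, and 0.12 without vector replicate 3. In the same comparison 10 of 10 megakaryocyte markers (median 0.29, summed level 740 to 1221 and 946 to 1267 CPM) and 9 of 12 LSK markers (median 0.16, summed level 2570 to 3135 and 2950 to 3095 CPM) were positive, and their part in this list and in the 3 lists that follow was not tested. Xiap, the direct caspase inhibitor, was at 51.0, 48.5 and 38.3 CPM in vector replicates 1 to 3, against 65.4, 52.7 and 56.2 CPM in labelled Hmga2 replicates 1 to 3. Its log2 fold change was 0.34 with a standard error of 0.14 (adjusted p = 0.855, edgeR). Birc2 and Birc3, ubiquitin ligases of the same family, were at 45.7 ± 2.13 and 52.3 ± 4.76 CPM and at 31.7 ± 2.33 and 36.2 ± 1.58 CPM, and Naip6 was at 21.3 ± 5.71 and 27.2 ± 1.94 CPM (SD, n = 3 each). Naip genes are close copies of each other, so their counts are uncertain.

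The p53 list leaves out the p53 targets among the members. Of its 18 genes, 11 were above 0 on the log2 fold change scale, beside 50.4% of all genes, and 0 were called. The groups did not overlap for 3, with Mdm2 and Fas higher and Aen lower, beside 11.2% of all genes. The median of the list was 0.14. That median was -0.024 and 0.046 when labelled Hmga2 replicates 3 and 1 were left out, 0.082 and 0.073 when vector replicates 2 and 3 were, and -0.086 when Y-linked expression entered the fit. Aen, a nuclease induced by p53, was at 108 ± 4.37 and 92.0 ± 6.69 CPM and Mdm2, the ligase that degrades p53, at 58.7 ± 2.81 and 66.5 ± 5.42 CPM. Sesn1, a stress-induced metabolic regulator, was at 63.8 ± 10.3 and 74.1 ± 5.06 CPM. The gene Cdkn1a was at 17.6, 9.46 and 18.4 CPM in vector replicates 1 to 3, against 19.0, 10.6 and 26.8 CPM in labelled Hmga2 replicates 1 to 3, lowest in replicate 2 of each group.

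In the death receptor list 7 of 10 tested genes had a positive log2 fold change, beside 50.4% of all genes, 0 were called, and 3 did not overlap, beside 11.2% of all genes. The median was 0.10, 0.053 without labelled Hmga2 replicate 1, and 0.028 with the Y-linked term. Tnfsf10, which encodes the death ligand TRAIL, was at 30.3, 22.3 and 28.9 CPM in vector replicates 1 to 3, against 41.4, 36.4 and 41.5 CPM in labelled Hmga2 replicates 1 to 3. Every library of the latter stood above every vector library. The fitted log2 difference was 0.55 (standard error 0.14, 95% interval 0.23 to 0.87) and did not pass after adjustment (adjusted p = 0.855 in edgeR, adjusted p = 0.103 in DESeq2, the lowest over the alternatives, the highest being 0.9997). Cflar, which encodes FLIP, the inhibitor of caspase 8, was at 76.3 ± 2.41 and 85.6 ± 7.03 CPM, and Casp8 itself at 115 ± 15.1 and 128 ± 4.52 CPM. The receptor gene Fas was at 1.04 ± 0.0357 and 1.52 ± 0.431 CPM (SD, n = 3 each).

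Among 15 genes that act on the members from above, 11 had a positive log2 fold change and 4 did not overlap, beside 50.4% and 11.2% of all genes. The median was 0.08, and 0.12 without vector replicate 3. Atf4, a stress transcription factor known to act on Bbc3 and Pmaip1, was at 265, 265 and 276 CPM in vector replicates 1 to 3, against 211, 189.6 and 213 CPM in labelled Hmga2 replicates 1 to 3. The vector libraries lay within a narrow range well above the others. The log2 fold change was -0.39 with a standard error of 0.08, which was not called in edgeR (adjusted p = 0.855) and was called in DESeq2 (adjusted p = 0.0033), the only gene of these non-marker lists that either tool called. Over the alternatives of this result the log2 fold change ranged from -0.46 to -0.34 and the adjusted p from 0.0033 to 0.9997.

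Stat5b, a transducer of JAK2 signals, was at 151, 159 and 162 CPM in vector replicates 1 to 3, against 213, 180.4 and 172 CPM in labelled Hmga2 replicates 1 to 3, with a log2 fold change of 0.26 and a standard error of 0.10 (adjusted p = 0.855, edgeR). Without labelled Hmga2 replicate 1 it was 0.16. Stat3 was at 196 ± 4.05 and 222 ± 7.33 CPM and Rela, an NF-kB subunit, at 109.7 ± 0.39 and 117 ± 1.21 CPM (SD, n = 3 each).

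**Figure D5:**
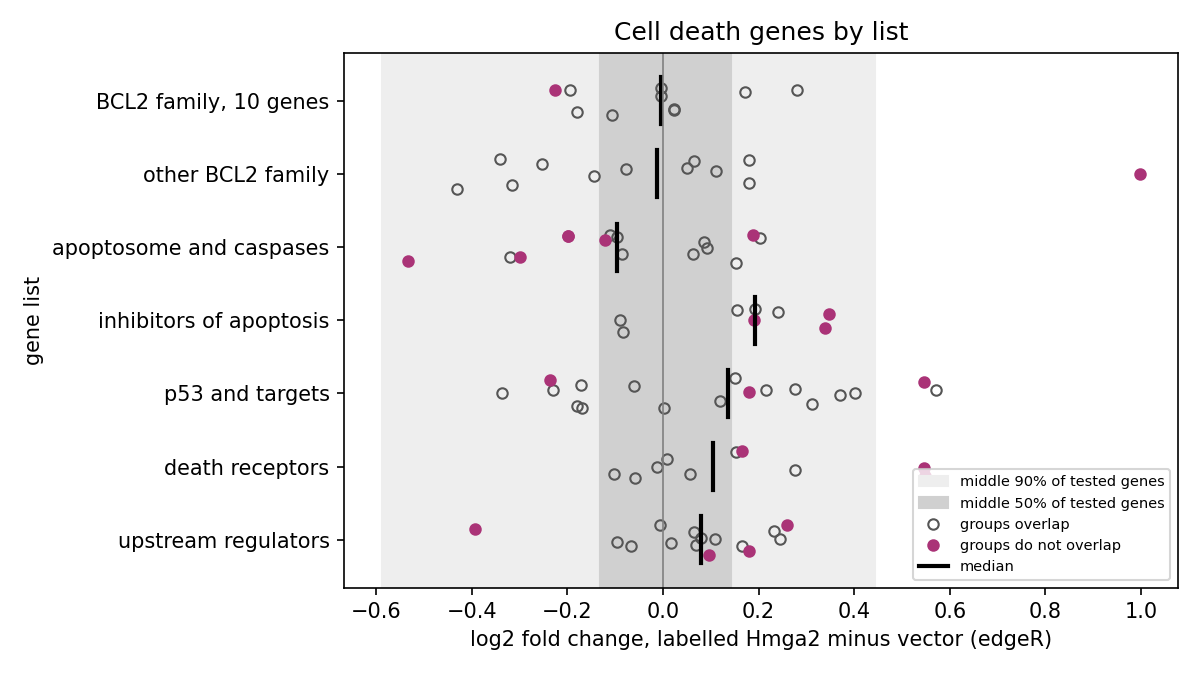
Log2 fold change (labelled Hmga2 minus vector, edgeR) of each tested gene in 7 lists, with filled points where the groups do not overlap, bars at list medians and bands for the middle 50% and 90% of all tested genes. The 10 BCL2 family genes lie between -0.22 and 0.28 with 1 filled point, Bid, and the apoptosome list has 6.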

How the data were processed

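The members and lists were chosen with earlier results of these data known. The authors deposited estimated counts per gene symbol, made from aligned reads and not normalized, as judged from the numbers: 67.3% to 70.1% of values above 0 were whole within 1e-06. Partek 3.0, Bowtie2 and mm10 are named, per the submitters' processing notes; the sources used here do not give counter, annotation or strand. Rounded counts entered edgeR 4.0.16 under R 4.3.3 (filterByExpr, TMM, quasi-likelihood F test on group, Benjamini-Hochberg over all genes, threshold 0.05); standard errors came from the F statistic. CPM use TMM-scaled totals of tested genes, and log2 CPM a prior count of 2. Intervals cover the spread between libraries, floors counting error only. DESeq2 1.42.0 and the other alternatives are in the closing section. Every replicate pair exceeded sampling noise (chi-square over degrees of freedom 24.7 to 56.9). Named genes were all members, Hmga2, up to 4 genes per other list with the smallest unadjusted p, the 2 genes most like each survival gene and a few cell markers; Socs3, Cd68 and Cdkn1a were added after their values were seen. Positions and lengths are from GENCODE M21 on GRCm38, the same build as mm10, where 97.1% of tested symbols had a single entry.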

Additional observations from a re-analysis of the deposited data

How the results depend on the processing

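The count of 0 genes called over all genes was 71 with DESeq2, 1 without the filter on low counts, 1 with a term for Y-linked genes and 0 with each library left out; 0 members were called under any of the 14 alternatives run. The number of members with an unadjusted p under 0.05, 0 in the main edgeR fit, was 1 in DESeq2, Bid. With a library left out it ranged from 0 to 2, 2 being Bax and Bak1 without vector replicate 1. It was 1 without labelled Hmga2 replicate 1 (Bid) or 2 (Bcl2), and 1 with a replicate block (Bcl2). Bid alone also passed with DESeq2 size factors in edgeR, without the filter and without immunoglobulin genes. The same held with a term for immunoglobulin-rich libraries or for Y-linked genes, while 0 members passed with total counts only. Leaving out a library moved the log2 fold change of Bcl2l1 from -0.14 to 0.18, of Mcl1 from -0.085 to 0.097, of Bcl2l11 from -0.055 to 0.14, of Pmaip1 from -0.39 to 0.57 and of Hmga2 from -0.49 to 0.063. Direction also turned for Bcl2l1 with total counts only (0.021), without the filter (0.00035), with immunoglobulin-rich libraries as a term (0.14) and with the Y-linked term (0.25). For Mcl1 it turned with total counts only (0.018) and with these terms (0.034 and 0.015), for Pmaip1 with both terms (-0.035 and -0.36), and with the Y-linked term for Bcl2l11 (-0.065), Bad (0.031) and Hmga2 (0.11). The causes were not tested. Bcl2, Bbc3, Bid, Bax and Bak1 kept their sign in all 14. With longest-transcript lengths the shares of the survival level were 14.2% (Bcl2, vector), 17.4% and 16.9% (Bcl2l1, vector and labelled Hmga2) and 68.4% and 66.4% (Mcl1).

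Over all tested genes, deviations of same-numbered libraries from their group means correlated at -0.21, -0.50 and -0.26. These values show no shared replicate effect over all genes. They cannot exclude that the numbers pair libraries, since the immunoglobulin-rich libraries carry different numbers in each group. With a replicate block 0 genes were called and the log2 fold change of Mcl1 was 0.0023. The standard error of Pmaip1, 0.47, was 0.20 with the block. Depth was at least 150 reads per library for Pmaip1, whose 95% interval spans folds from 0.475 to 2.17.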
